A study of Mus musculus with 8 samples.

Results

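The genes of collagen chains were followed in whole lungs of newborn mice kept in high oxygen, in 4 arrays labelled heterozygous for Fgf10 and 4 labelled wild-type. A member was any gene symbol made of Col, a number, the letter a and a number. This gave 43 of the 20839 gene symbols with complete values, of which 11 were fibrillar, 6 belonged to type IV of the basement membrane, 9 were fibril-associated collagens with interrupted triple helices (FACIT) and 17 were of other kinds. On the array's own symbols 42 genes had this form. Col26a1 (listed as Emid2) and the brighter feature of Col6a5 (listed as Gm7455) were added by the current symbol of their accession, and the feature listed as Col6a5 itself was below the filter described later, at a mean of 2.58. Each gene was represented by the array feature with the highest mean over the 8 arrays. Col6a3 and Col21a1 were not analysed here.

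Collagen molecules are chains wound into a triple helix, and a molecule may join chains of the same gene or of different genes. Fibrillar collagens give lung tissue its tensile strength, type IV collagens form the sheet of every basement membrane, and FACIT collagens sit on the surface of fibrils. In the developing lung, fibroblasts and smooth muscle cells make most of the fibrillar chains, and the basement membrane between alveolar epithelium and capillaries contains both the widespread and the restricted type IV chains. The chains are hydroxylated and folded in the endoplasmic reticulum, secreted, trimmed by proteases and then cross-linked outside the cell.

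Total RNA of lungs of C57Bl/6J pups, treated with 85% oxygen from postnatal day 0 to day 3, was hybridised to Agilent arrays with 1 dye. The groups were TG_hyperoxia, with the genotype label Fgf10 +/-, and WT_hyperoxia, with the genotype label wild-type, 4 independent samples each per the design text. Both groups were in oxygen and no room air arrays were analysed here, so each value is a genotype difference under oxygen. The labels do not tie samples to litters or say what TG stands for, so the p-values speak only of the spread seen among these samples. Fgf10 did not check the labels, because the deleted part of the gene and the position of the features are not given in the sources used here. Its brightest feature read 7.81, 7.99, 8.10 and 8.28 in TG arrays 1 to 4 and 7.53, 8.16, 7.91 and 7.64 in WT arrays 1 to 4 (log2 intensity). The group means were 8.04 ± 0.20 and 7.81 ± 0.28 (SD, n = 4 each), a difference of 0.23 (two-sided exact permutation p = 0.2), and in TG the mean was higher for each of the 10 features of Fgf10. These 10 features are measured on the same 8 arrays and are not separate evidence, and whether they are repeats of the same probe is unknown. The directions given here depend on the labels being right. Over the 17234 tested genes, pairs of arrays correlated at 0.975 to 0.985 within a group and at 0.974 to 0.987 across groups. The lung markers Sftpc, a surfactant protein gene, and Scgb1a1, a club cell gene, read between 15.94 and 15.99 in all 8 arrays. This is the top of the scale of 15.99, where a group difference could hardly show. Of 6 lung markers none had a limma adjusted p below 0.05. Nkx2-1 differed by 0.41 (log2, TG minus WT, adjusted p = 0.0692), with every TG array above every WT array, as in 3.13% of all genes. Foxj1, Ager and Hopx differed by 0.18, -0.14 and -0.06 and overlapped.

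The regulatory sequence in front of 4 members is shown because their means lie on both sides of the comparison. Col1a2 and Col3a1, main chains of the interstitial fibril, had lower means in TG, and Col9a2 and Col8a2 had higher means. None of the 4 passed the test between the groups (limma adjusted p of 0.302 to 0.505). Each line gives the 250 bases before the RefSeq start, 5′ to 3′, on the + strand of build GRCm38.p6. The windows are chr6:4505368-4505617 for Col1a2, chr1:45311288-45311537 for Col3a1, chr4:121039316-121039565 for Col9a2 and chr4:126286544-126286793 for Col8a2. Capitals mark the motifs searched on both strands, which were the CCAAT box, the TATAAA form of the TATA box and the GC box GGGCGG. On the opposite strand they read ATTGG for the first, TTTATA for the next and CCGCCC for the last.
Col1a2: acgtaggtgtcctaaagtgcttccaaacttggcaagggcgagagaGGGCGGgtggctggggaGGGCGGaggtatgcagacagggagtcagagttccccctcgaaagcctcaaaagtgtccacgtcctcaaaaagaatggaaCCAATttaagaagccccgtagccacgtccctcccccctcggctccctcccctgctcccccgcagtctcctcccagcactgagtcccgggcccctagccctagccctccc
Col3a1: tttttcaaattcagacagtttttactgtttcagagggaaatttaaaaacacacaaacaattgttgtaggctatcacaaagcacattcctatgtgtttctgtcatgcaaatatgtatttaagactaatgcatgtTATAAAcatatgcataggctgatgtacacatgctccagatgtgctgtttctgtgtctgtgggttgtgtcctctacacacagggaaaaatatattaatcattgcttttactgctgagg
Col9a2: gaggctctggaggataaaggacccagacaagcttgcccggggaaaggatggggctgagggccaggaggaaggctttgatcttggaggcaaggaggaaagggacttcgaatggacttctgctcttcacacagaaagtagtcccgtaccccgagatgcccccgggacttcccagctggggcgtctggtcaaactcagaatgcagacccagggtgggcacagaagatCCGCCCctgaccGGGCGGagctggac
Col8a2: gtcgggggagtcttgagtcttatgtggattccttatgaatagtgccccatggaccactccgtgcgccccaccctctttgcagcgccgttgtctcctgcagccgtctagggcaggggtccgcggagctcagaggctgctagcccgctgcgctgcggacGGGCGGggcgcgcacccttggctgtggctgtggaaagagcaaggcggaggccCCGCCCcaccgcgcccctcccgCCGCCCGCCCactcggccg
Col1a2 held 1 CCAAT and 2 GGGCGG matches, Col3a1 held 1 TATAAA match, Col9a2 held 2 and Col8a2 held 4 GGGCGG matches. RefSeq's table had windows for 34 of the 43 members, 37 windows in all. CCAAT occurred in 13 of the 37 windows and in 33.8% of all 32851 windows of this length, TATAAA in 5 and in 12.4%, and GGGCGG in 22 and in 32.7%. A match is a description of the letters and no evidence that a factor binds there.

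No collagen gene passed the test between the groups. Of the 43 members, 39 passed the filter on dim features (a mean of at least 2.76 on the log2 scale over all 8 arrays), and limma called 0 of the 39 at an adjusted p below 0.05, against 0.795% of all 17234 genes tested (0.569% lower and 0.226% higher in TG). At an unadjusted p below 0.05 there were 6 of 39, with 4 lower and 2 higher in TG, against 11.2% of all genes. The lower ones were Col4a1, Col4a2, Col12a1 and Col14a1, and the higher ones were Col9a2 and Col23a1. A lower mean in TG was seen in 21 of the 39 and in 48.7% of all genes, and the median difference was -0.10 against 0.01 over all genes (log2, TG minus WT). By class the medians were -0.23 for 10 fibrillar chains, 0.05 for 6 type IV chains, -0.19 for 7 FACIT chains and 0.04 for 16 others. The fibrillar class was the most one-sided of these, with 9 of 10 chains lower (Col11a2 by -0.00, and 0.14 higher with array weights). Its median was -0.36 without WT array 1 and -0.16 without WT array 4. The other class medians also moved, and some turned, with single arrays left out. Without WT array 1 the type IV median was -0.05 and that of the others -0.02. The FACIT median was -0.10 without WT array 4 and 0.08 with the filter at the 50th percentile. The median over all 39 was -0.00 without WT array 4. Among the 30 members with an 8-array mean of at least 4, 15 had lower and 15 had higher means in TG and the median was -0.05. The groups did not overlap in 2 of 39 members, against 6.64% of all genes. These were Col5a3, lower in TG (3.51% of all genes), and Col8a2, higher in TG (3.13%). Without WT array 1 the count was 10 of 39 and the share of all genes 11.1%. It was 6 without TG array 2, with 10.3% of all genes, and 4 without WT array 2 or 3, with 9.42% and 11.5%.

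**Figure D1:**
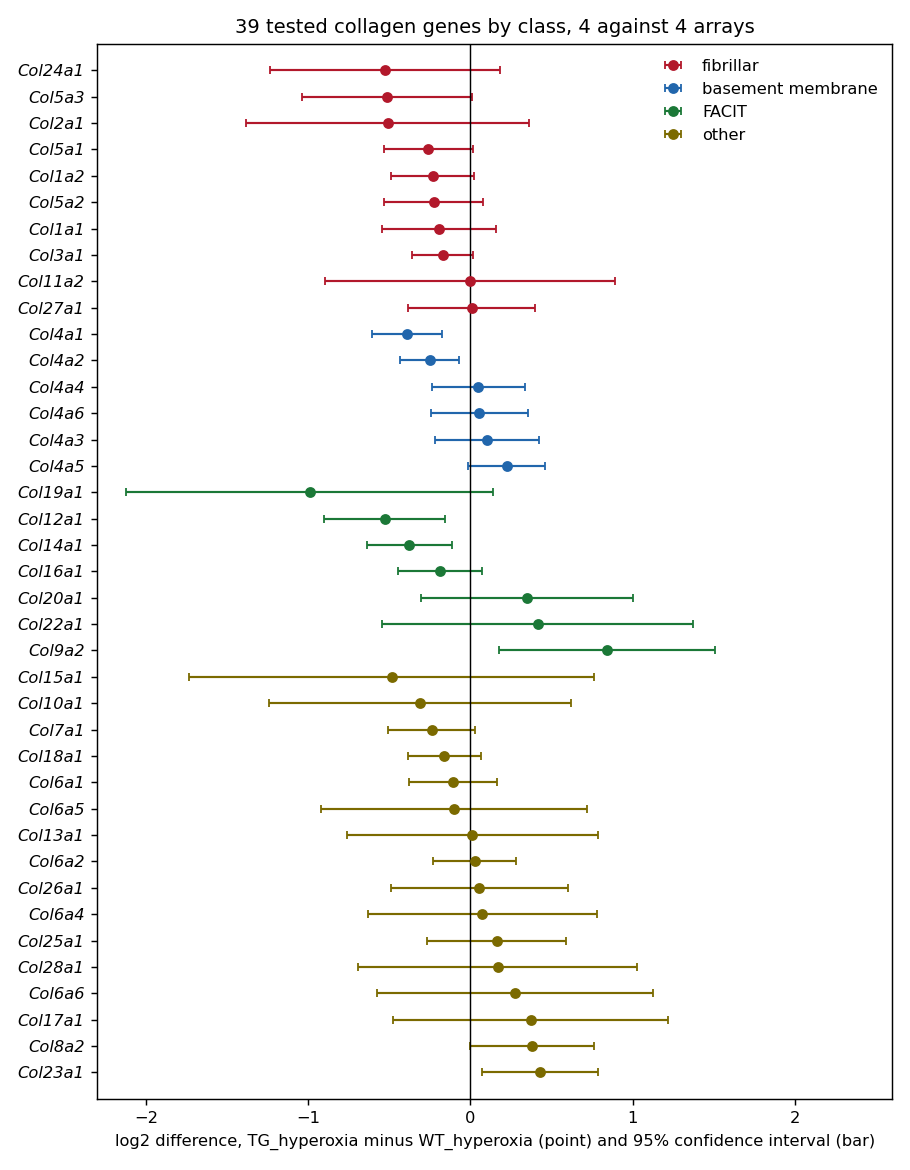
The log2 difference of each of the 39 tested collagen genes (x axis, TG_hyperoxia minus WT_hyperoxia) is plotted with its 95% confidence interval from limma and coloured by class, 4 arrays per group. Fibrillar chains lie left of 0 except Col11a2 (-0.00) and Col27a1 (0.01), which lie at 0, and in type IV Col4a1 (-0.39) and Col4a2 (-0.25) lie left and the other 4 chains right of 0.

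Among fibrillar collagens, the chains of type I, III and V read lower in TG by 0.17 to 0.51, and none passed. Col1a1, the main chain of type I collagen, read 13.59, 13.29, 13.50 and 13.74 in TG arrays 1 to 4 and 13.14, 13.86, 13.79 and 14.11 in WT arrays 1 to 4 (log2 intensity). WT array 1 was the lowest of all 8 and WT array 4 the highest, so the groups overlapped. The difference was -0.19 (95% CI -0.55 to 0.16, limma adjusted p = 0.72). It was -0.39 without WT array 1 and -0.07 without WT array 4. Col1a2, the second chain of type I, read 15.28, 14.91, 15.05 and 15.24 in TG and 15.01, 15.56, 15.27 and 15.57 in WT, close to the top of the scale of 15.99. Its groups overlapped through WT array 1 and WT array 3, with a difference of -0.23 (95% CI -0.49 to 0.02, adjusted p = 0.504). Col3a1, the chain of type III collagen found with type I in distensible tissue, read 14.03, 13.60, 13.81 and 13.92 in TG and 13.91, 14.03, 14.05 and 14.06 in WT. Its 3 highest values were WT arrays 2 to 4, with a difference of -0.17 (95% CI -0.36 to 0.02, adjusted p = 0.505). It was -0.09 without TG array 2.

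Type V collagen, a minor component that sets fibril diameter, has 3 chains here. Col5a1 read 10.52, 10.16, 10.49 and 10.37 in TG and 10.30, 10.89, 10.58 and 10.82 in WT, a difference of -0.26 (95% CI -0.54 to 0.01, adjusted p = 0.481). Only WT array 1 lay among the TG arrays. Col5a2 had group means of 8.91 ± 0.20 in TG and 9.13 ± 0.25 in WT (SD, n = 4 each) and a difference of -0.23 (SE 0.14). Col5a3 read 5.54, 5.41, 4.74 and 5.37 in TG and 5.81, 5.93, 5.61 and 5.76 in WT. It was the only fibrillar chain whose groups did not overlap, with a difference of -0.51 (95% CI -1.04 to 0.01, adjusted p = 0.456), and TG array 3 was well below the other TG arrays. Without that array the difference was -0.34. In the RefSeq gene order Col5a2 lies next to Col3a1 on chromosome 1.

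The remaining fibrillar chains were dim or level. Col24a1 had a difference of -0.53 (SE 0.33) between means of 3.92 ± 0.33 and 4.45 ± 0.47. Col27a1 had means of 7.43 ± 0.27 and 7.43 ± 0.26, a difference of 0.01 (95% CI -0.38 to 0.40). Col2a1 and Col11a2, chains of cartilage fibrils, had 8-array means of 3.11 and 3.38 and differences of -0.51 (SE 0.40) and -0.00 (SE 0.41). Col11a1 lay below the filter at 2.65. No detection call exists for these arrays, so whether such dim features lay above background is unknown.

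**Figure D2:**
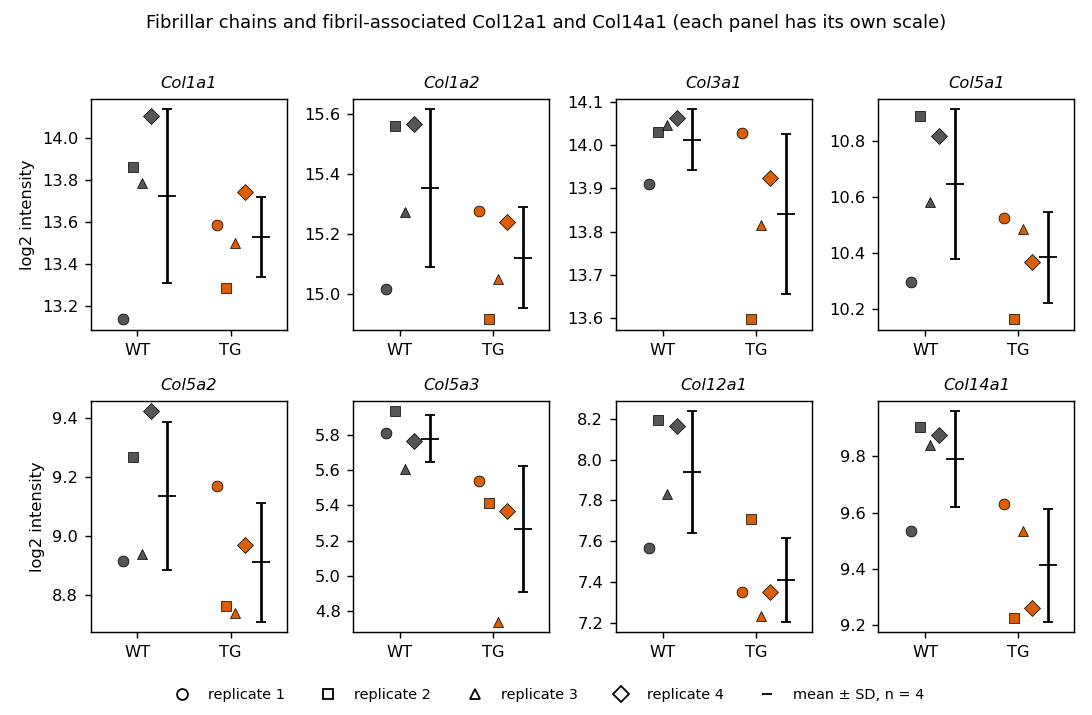
Log2 intensities (y axis) of 6 fibrillar chains and of Col12a1 and Col14a1 are plotted for each WT_hyperoxia and TG_hyperoxia array, with replicate numbers as symbols and bars for the mean ± SD (n = 4). WT array 1 lies within the range of the TG arrays in most panels, as for Col5a1 (10.30), and below all TG arrays for Col1a1 (13.14). In Col5a3 the groups do not overlap.

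The fibrillar chains with a mean of at least 4 shared their low arrays. Of these 8 chains, 7 read lower in TG, 7 had their lowest WT value in WT array 1 and 5 had their lowest TG value in TG array 2. These low arrays were not particular to fibrillar chains. By median deviation from each gene's 8-array mean, WT array 1 was also the lowest WT array for type IV (-0.24), FACIT (-0.11) and other chains (-0.27). TG array 2 was also the lowest TG array for type IV (-0.19) and FACIT chains (-0.20), and TG array 1 for the others (-0.08). Deviations from the group means were compared for 6 pairs of partner chains over the 8 arrays, with exact permutations of the arrays within groups (two-sided) and Benjamini-Hochberg adjustment over the 6 pairs. Col1a1 and Col1a2 had Pearson r = 0.91 (p = 0.00521, adjusted p = 0.0313) and Spearman rho = 0.83 (p = 0.0156, adjusted p = 0.0938), with r = 0.82 without WT arrays 1 and 4. Col5a1 and Col5a2 had r = 0.74 (exact p = 0.0799, adjusted p = 0.146) and rho = 0.81 (exact p = 0.106, adjusted p = 0.222), with r = 0.63 without TG array 2 and WT array 1. Col4a1 and Col4a2 had r = 0.72 (exact p = 0.0972, adjusted p = 0.146) and rho = 0.69 (exact p = 0.111, adjusted p = 0.222), with r = 0.50 without WT arrays 1 and 4. Col4a3 and Col4a4 had r = 0.69 (exact p = 0.0694, adjusted p = 0.146) and rho = 0.52 (exact p = 0.188, adjusted p = 0.267). Their r was -0.21 without TG array 2 and WT array 1, so the relation rests on those arrays. Col6a1 and Col6a2 had r = 0.38 (exact p = 0.394, adjusted p = 0.473) and rho = 0.55 (exact p = 0.222, adjusted p = 0.267), with r = 0.50 without WT arrays 1 and 4. Col4a5 and Col4a6 had r = -0.03 (exact p = 0.932, adjusted p = 0.932) and rho = 0.14 (exact p = 0.786, adjusted p = 0.786), with r = -0.47 without TG array 2 and WT array 1. Of the 6 pairs, the type I pair alone passed adjustment, on Pearson r. The permutations set each pair against no correlation at all, and pairs of genes that are not partners were not examined. Because low arrays were shared across classes, these values cannot show a relation particular to partner chains.

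In the basement membrane, the chains of the widespread type IV molecule had lower means in TG, and the restricted chains had higher means that were, except for Col4a5, close to 0. Col4a1, which supplies most chains of the widespread molecule, had the smallest p of all collagens. It read 12.93, 12.95, 13.18 and 13.27 in TG arrays 1 to 4 and 13.25, 13.50, 13.48 and 13.67 in WT arrays 1 to 4. The groups overlapped only by TG array 4 over WT array 1, and the mean was 1.31-fold lower in TG (difference -0.39, 95% CI -0.61 to -0.18, limma adjusted p = 0.1). Without WT array 1 the difference was -0.47 and the adjusted p = 0.0306. Col4a1 is represented by 10 features, all lower in TG by 0.32 to 0.41, and in 8 of the 10 the groups did not overlap. The 10 features are measured on the same 8 arrays and are not separate evidence, and whether they are repeats of the same probe is unknown. Col4a2, its partner in the same molecule, read 12.15, 12.24, 12.41 and 12.25 in TG and 12.32, 12.52, 12.63 and 12.60 in WT. TG array 3 lay above WT array 1 and otherwise the groups were apart, with a difference of -0.25 (95% CI -0.44 to -0.07, adjusted p = 0.254). The RefSeq starts of Col4a1 and Col4a2 lie on opposite strands of chromosome 8 within 22 bases of each other.

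**Figure D3:**
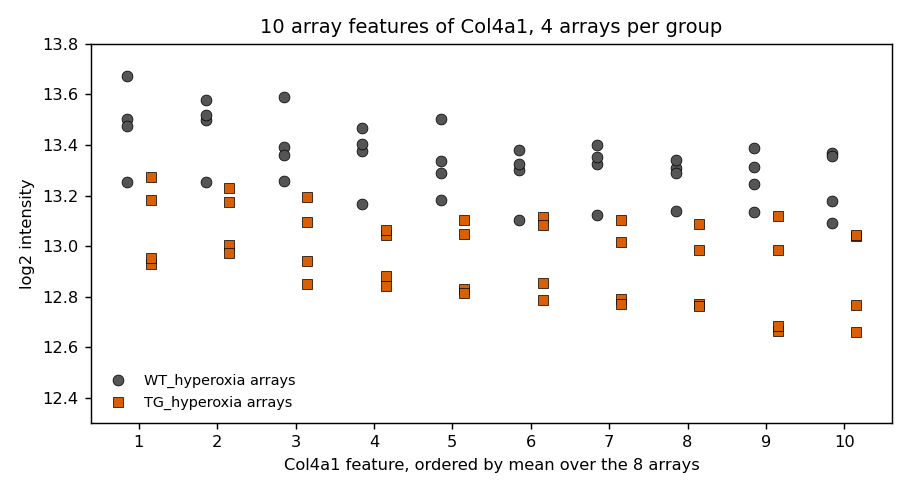
Log2 intensity (y axis) of each of the 10 Col4a1 features (x axis, ordered by mean over the 8 arrays) is plotted for the 4 WT_hyperoxia and the 4 TG_hyperoxia arrays. In 8 of the 10 features every TG array lies below every WT array, and the brightest feature, which represents the gene in the test, is 1 of the 2 where they overlap.

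The restricted chains build the molecule of Col4a3, Col4a4 and Col4a5, known from the kidney filter and the alveolar wall, and Col4a6 pairs with Col4a5. Col4a5 read 9.82, 9.49, 9.88 and 9.71 in TG and 9.38, 9.43, 9.55 and 9.65 in WT, a difference of 0.22 (95% CI -0.01 to 0.46, adjusted p = 0.481). Its 3 highest values were TG arrays 1, 3 and 4. Col4a3 read 9.38, 9.07, 9.74 and 9.44 in TG and 8.99, 9.54, 9.30 and 9.40 in WT, with wide overlap and a difference of 0.10 (95% CI -0.22 to 0.42, adjusted p = 0.862), which was -0.01 without TG array 3 and also turned negative without WT array 1. Col4a4 had means of 11.10 ± 0.18 and 11.05 ± 0.29 (SD, n = 4 each) and a difference of 0.05 (95% CI -0.24 to 0.33), which was -0.08 without WT array 1. Col4a6 had means of 7.92 ± 0.10 and 7.87 ± 0.19 and a difference of 0.06 (95% CI -0.24 to 0.35), which was -0.02 without WT array 1 and -0.13 with the mean of its features. In the gene order Col4a3 lies next to Col4a4 on chromosome 1 and Col4a5 next to Col4a6 on chromosome X.

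Within each array, Col4a1 set against the restricted chains read lower in TG. The log2 value of Col4a1 minus that of Col4a5 was 3.11, 3.46, 3.30 and 3.56 in TG and 3.87, 4.07, 3.93 and 4.02 in WT. All 4 TG arrays lay below all WT arrays, with means of 3.36 ± 0.19 and 3.97 ± 0.09 (SD, n = 4 each). Of the 15 pairs of type IV chains, the groups did not overlap in 5, which were Col4a1 against each of Col4a3, Col4a4, Col4a5 and Col4a6, and Col4a2 against Col4a5. Col4a1 minus Col4a3 ran from 3.44 to 3.88 in TG and from 3.97 to 4.27 in WT. Col4a1 minus Col4a4 ran from 1.83 to 2.11 and from 2.19 to 2.58. Col4a2 minus Col4a5 ran from 2.33 to 2.75 and from 2.93 to 3.09. Of these 5 pairs 4 hold Col4a1. The pairs share chains and arrays and were examined after the values of the chains were known, and no share over pairs of other genes was computed, so they are given as a description with no test.

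**Figure D4:**
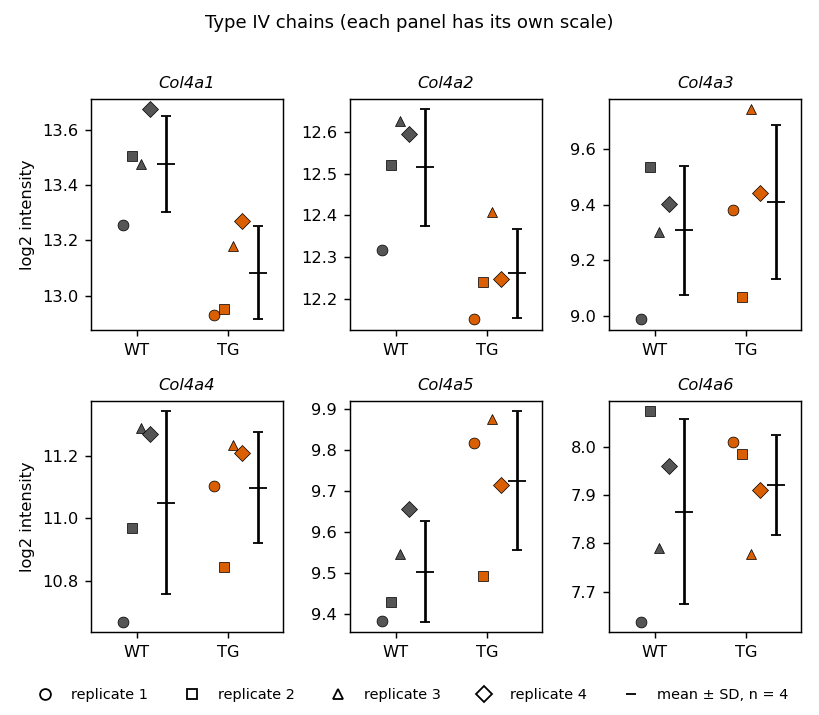
Log2 intensities (y axis) of the 6 type IV chains are plotted for each WT_hyperoxia and TG_hyperoxia array, with replicate numbers as symbols and bars for the mean ± SD (n = 4). Col4a1 and Col4a2 are lower in TG except for single overlapping arrays, Col4a5 is higher in TG arrays 1, 3 and 4 than in any WT array, and Col4a3, Col4a4 and Col4a6 overlap widely.

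The FACIT chains held 3 of the 6 smallest p-values, in both directions. Col12a1, which decorates type I fibrils in tissues under tension, read 7.35, 7.71, 7.23 and 7.35 in TG and 7.57, 8.19, 7.83 and 8.17 in WT. TG array 2 lay above WT array 1 and otherwise the groups were apart, with a mean 1.44-fold lower in TG (difference -0.53, 95% CI -0.90 to -0.15, limma adjusted p = 0.233). Col14a1, a second FACIT of type I fibrils, read 9.63, 9.23, 9.53 and 9.26 in TG and 9.54, 9.91, 9.84 and 9.88 in WT, a difference of -0.38 (95% CI -0.64 to -0.12, adjusted p = 0.224). WT array 1 lay below TG array 1. Its dimmer feature, at a mean of 5.27, differed by 0.18 in the other direction, and the mean of both differed by -0.10. Col16a1 had means of 12.36 ± 0.19 and 12.55 ± 0.25 (SD, n = 4 each), a difference of -0.19 (SE 0.12) that was -0.10 without WT array 4 and -0.39 with the mean of its features, and its 3 features above the filter were all lower in TG.

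Col9a2, a chain of the type IX collagen of cartilage, had the largest positive difference of the 39. It read 5.49, 4.92, 5.55 and 5.29 in TG and 4.50, 4.62, 5.01 and 3.76 in WT, with TG array 2 below WT array 3. The difference was 0.84 (SE 0.31, adjusted p = 0.302). Its partner chains Col9a1 and Col9a3 lay below the filter at 2.73 and 2.66. Of 12 cartilage markers, Acan, Matn1, Matn3 and Epyc also lay below the filter, and of the 8 tested 5 had higher and 3 lower means in TG, with none called. The mean level of those 8 ran from 4.40 to 4.85 in TG and from 4.37 to 4.98 in WT, so the list overlapped between the groups. Col19a1 had the largest negative difference of all members and rested on few arrays. It read 3.31, 3.13, 2.56 and 2.84 in TG and 5.55, 2.58, 4.15 and 3.52 in WT, a difference of -0.99 (95% CI -2.12 to 0.14, adjusted p = 0.524). Without WT array 1 it was -0.46. Its other feature, below the filter at a mean of 2.61, differed by 0.67 in the other direction with groups that did not overlap. Col20a1 and Col22a1 had differences of 0.35 (SE 0.30) and 0.41 (SE 0.45). Col20a1 was 0.14 without WT array 3, and Col22a1 was 0.03 without TG array 2.

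Among the other collagens, 10 of the 16 tested members had higher means in TG and none passed. Col6a1, a chain of the beaded filaments around cells, read 13.39, 13.22, 13.61 and 13.52 in TG and 13.20, 13.63, 13.45 and 13.88 in WT. The groups overlapped widely, with a difference of -0.11 (95% CI -0.38 to 0.16, adjusted p = 0.819). Its partner and neighbour Col6a2 differed by 0.03 (95% CI -0.23 to 0.28). The related chains Col6a4, Col6a5 and Col6a6, which are next to each other on chromosome 9, had 8-array means of 4.40, 3.37 and 3.10 and differences of 0.07, -0.10 and 0.27 (SE 0.33 to 0.39), with no shared sign among neighbours. Col6a6 was 0.04 without TG array 3.

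Transmembrane collagens, which sit in the plasma membrane with the triple helix outside, included Col23a1 with the second smallest p among higher members. It read 7.99, 7.78, 7.95 and 8.03 in TG and 7.95, 7.28, 7.51 and 7.29 in WT. WT array 1 read as high as the TG arrays and the other WT arrays were lower, with a difference of 0.43 (95% CI 0.07 to 0.79, adjusted p = 0.334). Its 3 features disagreed, at 0.43, 0.76 and -0.66 from the brightest to the dimmest. Col25a1 had a difference of 0.16 (SE 0.20), which was 0.00 without WT array 1, Col13a1 0.01 (SE 0.36) and Col17a1, a hemidesmosome protein of basal epithelial cells, 0.37 (SE 0.39), which was 0.03 without WT array 1. With the mean of its features Col23a1 differed by 0.18 and Col25a1 by 0.63.

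Col8a2, a short-chain collagen that forms hexagonal networks under endothelium, read 6.54, 7.02, 6.94 and 6.74 in TG and 6.37, 6.41, 6.51 and 6.42 in WT. It was the only tested member with every TG array above every WT array, with a difference of 0.38 (95% CI -0.00 to 0.76, adjusted p = 0.452). Its dimmer feature, at 3.01, differed by -0.22, the mean of both features differed by 0.08, and its partner Col8a1 lay below the filter at 2.70. Col7a1, the collagen of anchoring fibrils, read 8.73, 8.96, 8.67 and 8.99 in TG and 9.05, 8.86, 9.10 and 9.30 in WT, a difference of -0.24 (95% CI -0.51 to 0.03, adjusted p = 0.517). Only WT array 2 lay among the TG arrays. Col18a1, which carries the endostatin fragment in vascular basement membranes, read 9.89, 9.75, 10.09 and 9.87 in TG and 10.11, 10.14, 9.84 and 10.16 in WT, a difference of -0.16 (95% CI -0.39 to 0.07, adjusted p = 0.615). WT array 3 stood below the other WT arrays. The related Col15a1 was dim, at 3.68, with a difference of -0.49 (SE 0.58) that was 0.08 without WT array 3. Col10a1, a marker of hypertrophic cartilage, and Col28a1 were dim too, with 8-array means of 2.95 and 2.90 and differences of -0.31 (SE 0.43) and 0.17 (SE 0.40). Col10a1 was -0.01 without WT array 3 and Col28a1 -0.01 without TG array 2. Col26a1 differed by 0.05 (SE 0.25). Col28a1 was the dimmest member tested and Col9a1 the brightest below the filter, at 2.73.

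Members with several features did not always repeat their sign. Of the 11 members with at least 2 features above the filter, 6 had the same sign in all and 5 did not, namely Col14a1, Col23a1, Col4a4, Col4a6 and Col8a2. The 6 were Col4a1, Col15a1, Col16a1 and Col18a1, all lower in TG, and Col20a1 and Col25a1, higher in TG. Of the 5, the groups did not overlap in 1 feature each of Col8a2 and Col23a1. Of the 43 members, 27 had a single feature.

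Among genes that make, trim, bind and break down collagen, limma called Adamts2 and Mmp2 lower in TG, where 0.569% of all genes were called lower, and the call of Adamts2 depended on the setting. Of 27 biosynthesis genes 25 were tested, Fkbp10 not being analysed here and Adamts3 being below the filter. Adamts2, the protease that removes the amino-terminal propeptide of procollagens I to III, was called lower. The other 24 did not pass, and the median was -0.12. Adamts2 read 11.47, 11.58, 11.65 and 11.73 in TG and 11.82, 12.31, 12.12 and 12.47 in WT. The groups did not overlap, with a difference of -0.57 (95% CI -0.83 to -0.31, limma adjusted p = 0.0448). Over the 8 fits that each omit a single array, the adjusted p of Adamts2 ran from 0.00291 to 0.155, and it stayed below 0.05 only without WT array 1. The call was also lost with no filter, with the mean of all features and with no variance trend. The next smallest p-values were those of the prolyl 3-hydroxylase gene P3h3 at -0.38 (SE 0.13), the procollagen C-proteinase enhancer Pcolce at -0.27 (SE 0.10) and P3h1 at -0.37 (SE 0.17), which was -0.16 with the mean of its features. The chaperone Serpinh1, which is specific to procollagen, had a value of 0.17 (SE 0.10).

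Mmp2, a gelatinase that cuts type IV and denatured collagen, was called lower among 7 tested degradation genes. It read 10.61, 10.51, 10.40 and 10.70 in TG and 11.21, 11.32, 11.10 and 11.45 in WT. The groups were well apart, with a mean 1.64-fold lower in TG (difference -0.71, 95% CI -0.92 to -0.50, adjusted p = 0.00568). Its adjusted p lay between 0.00371 and 0.031 with each array left out in turn, and was 0.15 without the variance trend. The other 6 did not pass, and Mmp13 lay below the filter. The collagenolytic cathepsin Ctsk had a value of -0.57 (SE 0.21), Fap -0.39 (SE 0.25) and Mmp14 -0.15 (SE 0.14), and the list had a median of -0.18. Ctsk was -0.35 without WT array 1, Fap -0.14 without TG array 3 and Mmp14 -0.08 without WT array 4. None of 9 collagen receptors was called and their median was -0.13. The collagen-binding kinase Ddr2 had a value of -0.32 (SE 0.12), the integrin chain Itga10 -0.41 (SE 0.17) with groups that did not overlap, and Itga1 -0.31 (SE 0.14). Lair1, an inhibitory receptor of leukocytes, had a value of 1.01 (SE 0.36), with WT array 1 at 6.24 among the TG arrays and the other WT arrays between 4.26 and 5.50. With the mean of its features the value was 0.40.

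Markers of cells that make collagen, and of other cells, were set beside the classes. In whole lung, fewer cells of a type and less RNA per cell cannot be told apart. The mean level of the 10 fibrillar chains ran from 8.34 to 8.58 in TG and from 8.60 to 8.90 in WT. The median of their deviations overlapped, at -0.29 to 0.01 in TG and -0.11 to 0.31 in WT, with WT array 1 the lowest WT array. In the mean level, the narrow gap between 8.58 and 8.60 leans on the dim chains Col2a1 and Col11a2. They read 3.72 and 3.97 in WT array 1, against 8-array means of 3.11 and 3.38. All 6 smooth muscle markers had lower means in TG with none called, and their mean level ran from 10.45 to 10.66 against 10.77 to 11.14. The 8 mesenchyme markers had 5 lower and 3 higher means and overlapped, at 9.64 to 10.01 against 9.84 to 10.18. Mesothelial markers, which had lower means in TG in 5 of 5, were highest in WT array 4. Their mean level was 8.68 there, 6.09 to 7.42 in the other WT arrays and 5.73 to 6.93 in TG, and WT array 4 also had the highest fibrillar level. Of 6 macrophage markers all had lower means in TG and none was called, with levels of 7.64 to 8.01 against 8.01 to 8.69. WT array 1 was the highest of these, at 8.69, and the lowest WT array for the median deviation of every collagen class. By that measure it was also the lowest WT array for mesenchyme, endothelial, mesothelial and dividing cell markers. It was not the lowest for smooth muscle, basal epithelial, cartilage or bone markers. Of 7 markers of dividing cells 6 were called lower, against 0.569% of all genes. With no variance trend limma called 1 gene among all those tested, so at most 1 of these 6 calls could remain. All 7 markers had groups that did not overlap, lower in TG, against 3.51% of all genes. Their mean level was 6.62 to 7.53 in TG and 8.05 or more in WT. The groups also did not overlap, lower in TG, in 2 smooth muscle, 1 mesenchyme and 1 macrophage marker. The 5 endothelial markers overlapped, at 10.70 to 10.98 against 10.72 to 10.98. Of 4 basal epithelial markers 2 had lower and 2 higher means, at 6.05 to 6.67 against 6.06 to 6.72. Bone markers were dim, at 3.72 to 4.49 against 3.08 to 3.71, with 4 of 4 tested higher and none called. The part of these cell types in the collagen values was not tested.

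**Figure D5:**
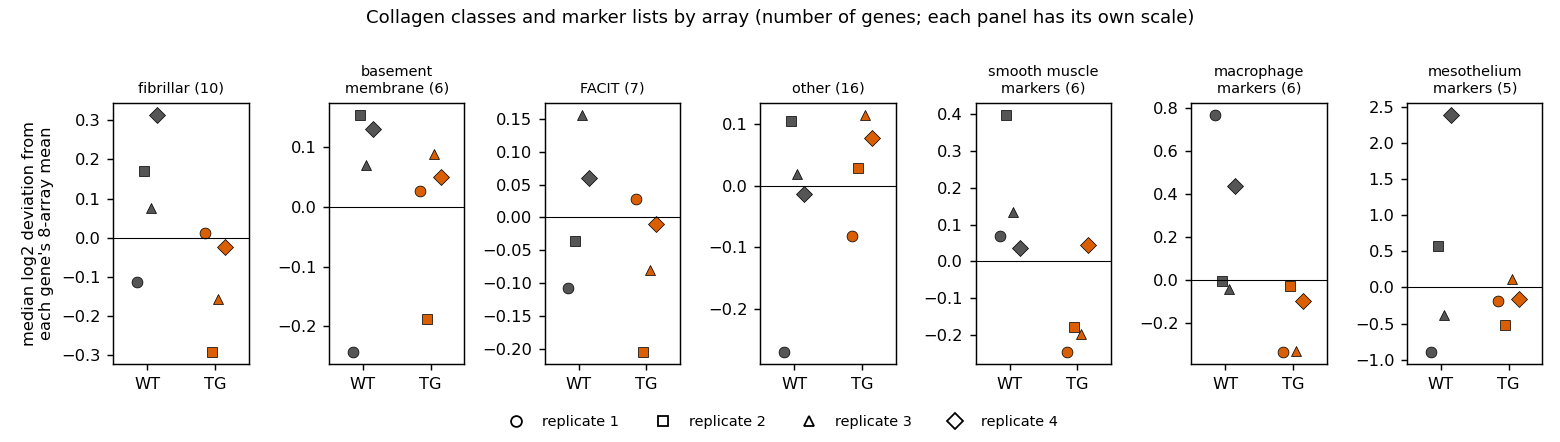
The median over genes of the log2 deviation from each gene's 8-array mean (y axis) is plotted for each WT_hyperoxia and TG_hyperoxia array, for the 4 collagen classes and 3 marker lists, with replicate numbers as symbols and the number of genes in parentheses. WT array 1 is the lowest WT array for the fibrillar (-0.11), basement membrane (-0.24), FACIT (-0.11) and other (-0.27) classes and for mesothelium markers (-0.90). It is the highest for macrophage markers (0.77), and WT array 4 is the highest for mesothelium markers (2.39).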

How the data were processed

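The authors deposited log2 intensities of 62976 array features for 8 arrays, and limma is the tool given in the submitters' processing notes, which state neither its version nor what it was used for. The 8 columns had nearly identical quantiles, so they were used as deposited. The background correction and the build of the array design are not given in the sources used here. There were 301 missing values in 189 features, which were left out. Symbols came from the platform annotation (31465 features with 1 symbol, 31511 with none), and 29036 were matched by accession to RefSeq, assembly GRCm38.p6, which updated 2933. Arrays have no read depth, and the precision is limited by how many there are.

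Features with an 8-array mean below the 30th percentile (2.76) were removed, and the brightest feature represented each of 17234 genes. TG_hyperoxia minus WT_hyperoxia was tested with limma 3.58.1 in R 4.3.3 (lmFit, eBayes with a variance trend, two-sided), adjusted over all genes by Benjamini-Hochberg and called below 0.05. SE and 95% CI come from that fit. On simulated data of this comparison (10 runs, 17234 genes, 200 changed) limma called 21.1% of those shifted by 0.5 log2 units and 50.0% of those shifted by 1 log2 unit, and 5.70% of its calls were on unchanged genes. The members, classes and lists were chosen with earlier results of these data known. Every member may be named. Values of each array are given for Col1a1, Col1a2, Col3a1, Col4a1, Col4a2, Col6a1 and the 4 members of each class with the smallest unadjusted p, and from the other collagen lists for called genes, with the 4 smallest p-values of each list named. Serpinh1 was added outside this rule. The alternatives were no filter or one at the 50th percentile, quantile normalization again, median centring, array weights, the mean of all features, no variance trend, the replicate number as a block, and each array left out in turn.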

Additional observations from a re-analysis of the deposited data

Results flagged for a closer look

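In 94 groups of 4 values examined (39 collagen genes and 8 list medians in each group), 3 had a single array far from the other 3, where chance flags about 1 in 20 groups. Col24a1 read 3.44 in TG array 3 and 4.02 to 4.14 in the other TG arrays, and its difference went from -0.53 to -0.37 without that array. Col6a4 read 5.05 in TG array 4 and 4.15 to 4.29 in the others, and its difference went from 0.07 to -0.13. Col18a1 read 9.84 in WT array 3 and 10.11 to 10.16 in the others, and its difference went from -0.16 to -0.24.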

How the results depend on the processing

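Over 16 alternatives the differences of the 39 collagen genes gave 617 values, of which 583 kept the sign and the side of the threshold, 32 turned the sign and 2 newly passed, and 26 of the 39 genes never turned. Deviations from the group means correlated weakly between same-numbered arrays (-0.00, -0.06, 0.03 and 0.07, with 1 of 4 closest to its own number). With 4 arrays per group this cannot settle whether the replicate numbers mark a pairing, and the labels name none. With the replicate block limma called 1 collagen gene, Col4a1 (adjusted p = 0.0449). The FACIT median was -0.38 with no filter, where the dim Col9a1 and Col9a3 enter. It was 0.080 with the filter at the 50th percentile, where Col19a1 drops out. The count of biosynthesis genes called was 0 with no filter, with the mean of all features and with no variance trend. With no variance trend the degradation count was 0 and the count over all genes was 1. The receptor median was -0.18 with the mean of all features. The sign turned for Col4a6 (-0.13, mean of all features), Col11a2 (0.14, array weights) and Col6a2 (-0.0093, array weights). The FACIT median changed with the members that entered, and the cause of the other changes was not tested.

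With each array left out in turn, collagen genes called ran from 0 to 1 (Col4a1 without WT array 1), members that did not overlap from 2 to 10, genes called in all from 34 to 173, and biosynthesis genes called from 0 to 1. Medians ran from -0.36 to -0.16 for fibrillar chains, -0.050 to 0.10 for type IV chains, -0.27 to -0.096 for FACIT chains, -0.019 to 0.095 for the others, -0.16 to -0.0029 for all collagen genes, -0.14 to -0.045 for biosynthesis, -0.44 to -0.12 for degradation and -0.18 to -0.076 for receptors. Signs turned for Col11a2 (-0.25 to 0.19), Col13a1 (-0.22 to 0.34), Col15a1 (-0.91 to 0.080), Col26a1 (-0.094 to 0.21), Col27a1 (-0.10 to 0.11), Col28a1 (-0.011 to 0.41), Col4a3 (-0.010 to 0.21), Col4a4 (-0.079 to 0.13), Col4a6 (-0.021 to 0.12), Col6a1 (-0.22 to 0.0059), Col6a2 (-0.068 to 0.10), Col6a4 (-0.14 to 0.18) and Col6a5 (-0.32 to 0.11).

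The median SE of a collagen difference was 0.18, which limits what could be told from 0. Without detection calls, the background under the 9 tested members with a mean below 4 is unknown.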
